A study of Homo sapiens with 12 samples.

Results

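A set of 11 genes whose RNA moved in opposite directions under JQ1 in VHL-negative and VHL-positive RCC4 cells was examined, out of 11316 protein-coding genes with a mean of at least 1 CPM (counts per 1000000 counts of the library) in all 4 groups, and of 60663 genes in the count table. The genes were chosen by their JQ1 responses. A gene was taken when its mean CPM under JQ1 was at least 1.5 times that under DMSO in either line and at most 0.67 times in the other, with the JQ1 and DMSO libraries not overlapping within each line; 1 further gene that meets these limits is left out and not reported here. RCC4 is a clear cell renal carcinoma line. It was used as VHL-negative cells, which have lost the tumour suppressor VHL, and as VHL-positive cells, the same line with VHL reintroduced. Each was given JQ1 at 5 µM, which blocks BET bromodomains and is called a MYC inhibitor in the labels, or DMSO, the solvent, which made 4 groups of 3 libraries of total RNA depleted of ribosomal RNA. How VHL was put back, whether either line is a single clone, how long the drug acted and whether replicates were separate cultures are not stated in the labels; the p-values therefore cover only the spread between these libraries, which may be technical. The labels name no other difference between the groups, and both lines were grown in medium with geneticin.

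VHL is the substrate receptor of a ubiquitin ligase that marks hypoxia-inducible factors for degradation in oxygenated cells, and its loss in clear cell renal carcinoma leaves these factors active. BET proteins read acetylated histones and help RNA polymerase to leave the promoter, and JQ1 displaces them, so that many genes lose expression while others gain it. The 11 genes encode transcription and chromatin factors (KLF2, ZFHX2, CBX5), enzymes of glucose and fatty acid metabolism (PFKFB3, HACD4), a zinc transporter (SLC30A4), signalling and cytoplasmic proteins (CAMK2N2, NDRG4, SHISA2), a cytoskeletal protein (LIMA1) and a protein of ciliary and sperm tail microtubules (ODF3B).

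The libraries held 15452949 to 32502310 counts. VHL had 33.7 CPM in JQ1-treated and 27.8 CPM in DMSO-treated VHL-negative cells, against 197 and 70.5 CPM in VHL-positive cells, so VHL-positive cells held more VHL RNA. In VHL-positive cells VHL RNA was also higher under JQ1 than under DMSO (log2 1.59, adjusted p = 3.5e-07, edgeR's quasi-likelihood test). In VHL-negative cells the same test did not pass (log2 0.31, adjusted p = 0.0674). The part of this VHL difference in the choice of the genes was not tested. MYC had 164 CPM under JQ1 against 351 under DMSO in VHL-negative cells, and 149 against 170 CPM in VHL-positive cells. Markers of endothelium stayed at or below 2.46 CPM (CLDN5) and those of leukocytes at or below 4.06 CPM (CSF1R). The fibroblast and pericyte list reached 26.3 CPM with RGS5, a pericyte marker. RGS5 had 1.11 CPM under JQ1 and 2.42 CPM under DMSO in VHL-negative cells, against 17.8 and 23.6 CPM in VHL-positive cells. PDGFRB and COL1A1 of the same list went the other way. PDGFRB had 1.145 and 7.26 CPM in VHL-negative cells, against 0.214 and 1.23 CPM in VHL-positive cells. COL1A1 had 2.04 and 1.91 CPM, against 0.641 and 1.74 CPM. The part of these genes in the line differences below was not tested. The renal list summed to 2781 to 3295 CPM. Libraries differed within groups. The nuclear RNA MALAT1 had 10393, 21812 and 16375 CPM under JQ1, against 2205, 4826 and 3178 CPM under DMSO, in VHL-negative cells, and 7836, 8289 and 7574 CPM under JQ1, against 6729, 1978 and 3263 CPM under DMSO, in VHL-positive cells. In JQ1-treated VHL-negative cells KLF2, ZFHX2, ODF3B, CBX5 and NDRG4 ranked the 3 libraries as MALAT1 did, as 32.1% of all 11316 genes did, and SLC30A4, SHISA2 and LIMA1 ranked them the other way round, as 41.8% did. In DMSO-treated VHL-negative cells PFKFB3, SLC30A4 and NDRG4 ranked as MALAT1 did (24.0% of all genes) and 0 the other way round (4.1%). In JQ1-treated VHL-positive cells NDRG4 (7.54%) and HACD4 (18.6%) did so, NDRG4 in the MALAT1 order and HACD4 in its reverse. In DMSO-treated VHL-positive cells ZFHX2 ranked as MALAT1 did (27.7%), and KLF2, NDRG4, SHISA2 and LIMA1 the other way round (23.1%). The part of this in the result was not tested.

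In 9 genes JQ1 was higher than DMSO in VHL-negative cells and lower in VHL-positive cells. These were KLF2, ZFHX2, ODF3B, HACD4, CBX5, PFKFB3, CAMK2N2, SLC30A4 and NDRG4. In LIMA1 and SHISA2 the order was the reverse. The 11 genes made up 0.0972% of the 11316. With the same limits 535 genes (4.73%) were higher under JQ1 in both lines and 1114 (9.84%) were lower in both, so far more genes went the same way in both lines than opposite ways. Since the JQ1 ratios chose the genes, they are given as a description with no test. The authors' deposited tables rest on the same libraries and are no separate reading; for KLF2 they give log2 fold changes of 0.81 ± 0.29 in VHL-negative and -1.25 ± 0.31 in VHL-positive cells (± the authors' SE). Positions below are on GRCh38, from GENCODE release 29.

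**Figure D1:**
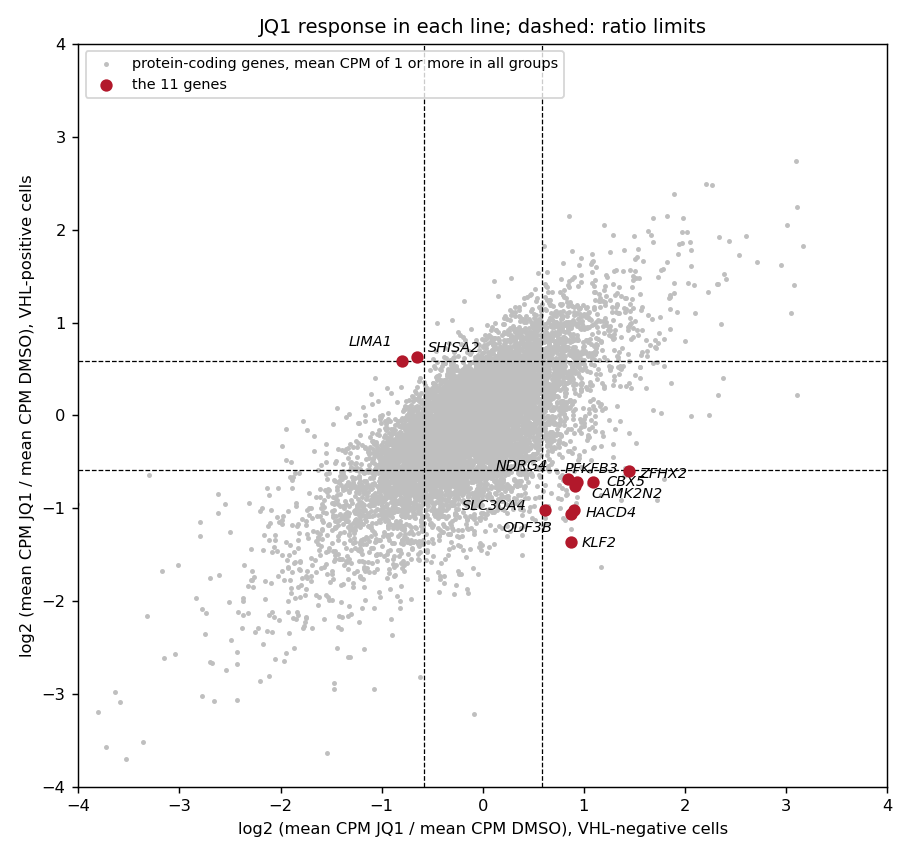
Each point is a protein-coding gene, with the log2 ratio of mean CPM under JQ1 to that under DMSO in VHL-negative cells on the horizontal axis and in VHL-positive cells on the vertical axis; dashed lines mark the ratio limits of 1.5 and 0.67, and 3 genes lie beyond the axes. The cloud runs along the diagonal, and the 11 genes (red) lie in its upper left and lower right corners.

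Among the metabolic genes, PFKFB3 (ENSG00000170525, chromosome 10, 6144934 to 6254644, plus strand) makes the sugar phosphate that activates phosphofructokinase, a gate of glycolysis, and it is known as a target of hypoxia-inducible factors. PFKFB3 had 584, 584 and 603 CPM under JQ1, against 263, 367 and 309 CPM under DMSO, in VHL-negative cells. In VHL-positive cells it had 142, 147 and 143 CPM under JQ1, against 254, 194 and 281 CPM under DMSO. The JQ1 libraries were tight in both lines. They stood at 1.885 times and 0.592 times the DMSO mean, on opposite sides as the choice of the genes required. HACD4 (ENSG00000188921, chromosome 9, 20999515 to 21031636, minus strand), a dehydratase of the elongation cycle of very long chain fatty acids, had 2.95, 3.04 and 3.28 CPM under JQ1, against 1.00, 1.40 and 2.56 CPM under DMSO, in VHL-negative cells. In VHL-positive cells HACD4 had 4.08, 4.04 and 4.33 CPM under JQ1, against 7.39, 8.55 and 9.29 CPM under DMSO. Its DMSO libraries of VHL-negative cells spread most relative to their mean, and its ratios were 1.87 and 0.494.

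Among the transcription and chromatin factors, KLF2 (ENSG00000127528, chromosome 19, 16324817 to 16327874, plus strand) is a zinc finger factor best known from endothelium under flow and from resting T cells. KLF2 had 3.91, 5.76 and 4.88 CPM under JQ1, against 3.00, 2.53 and 2.44 CPM under DMSO, in VHL-negative cells. In VHL-positive cells it had 1.01, 1.47 and 1.03 CPM under JQ1, against 2.37, 3.92 and 2.74 CPM under DMSO. The ratios were 1.83 and 0.389, the lower of them the smallest of the 11 genes. KLF2 rested on few reads, 19 to 119 per library. CBX5 (ENSG00000094916, chromosome 12, 54230940 to 54280133, minus strand) encodes heterochromatin protein 1 alpha, which binds methylated histones and compacts chromatin. In VHL-negative cells it had 420, 791 and 608 CPM under JQ1, against 253, 279 and 319 CPM under DMSO. In VHL-positive cells CBX5 had 249, 249 and 284 CPM under JQ1, against 492, 404 and 391 CPM under DMSO. The JQ1 libraries of VHL-negative cells were the most scattered of its 4 groups, and its ratios were 2.13 and 0.608. ZFHX2 (ENSG00000136367, chromosome 14, 23520855 to 23556192, minus strand), a homeobox and zinc finger factor, had 3.48, 11.3 and 7.14 CPM under JQ1, against 2.55, 3.26 and 2.23 CPM under DMSO, in VHL-negative cells. In VHL-positive cells ZFHX2 had 1.52, 2.57 and 2.22 CPM under JQ1, against 3.47, 2.99 and 3.08 CPM under DMSO. The lowest JQ1 library of VHL-negative cells lay just above its DMSO libraries, while the ratio of the means was 2.72, the highest of the 11 genes; in VHL-positive cells the ratio was 0.662.

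SLC30A4 (ENSG00000104154, chromosome 15, 45479611 to 45522807, minus strand) encodes ZnT4, which moves zinc out of the cytosol into vesicles. It had 14.5, 12.8 and 14.2 CPM under JQ1, against 4.82, 11.8 and 10.6 CPM under DMSO, in VHL-negative cells. In VHL-positive cells SLC30A4 had 1.45, 1.58 and 2.11 CPM under JQ1, against 2.83, 5.04 and 2.55 CPM under DMSO. The mean ratio of 1.53 in VHL-negative cells leant on the low DMSO library 1, and the ratio in VHL-positive cells was 0.493.

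NDRG4 (ENSG00000103034, chromosome 16, 58462846 to 58513628, plus strand), a member of the N-myc downstream regulated family known from heart and brain, had 7.62, 12.8 and 12.6 CPM under JQ1, against 5.30, 7.05 and 6.05 CPM under DMSO, in VHL-negative cells. In VHL-positive cells NDRG4 had 2.53, 2.87 and 2.49 CPM under JQ1, against 3.66, 4.81 and 4.22 CPM under DMSO. Its ratios were 1.79 and 0.622. CAMK2N2 (ENSG00000163888, chromosome 3, 184259213 to 184261463, minus strand), an inhibitor of calcium and calmodulin dependent kinase II, had 1.58, 2.20 and 2.83 CPM under JQ1, against 1.07, 1.33 and 1.06 CPM under DMSO, in VHL-negative cells. In VHL-positive cells CAMK2N2 had 1.04, 1.91 and 1.68 CPM under JQ1, against 2.79, 2.76 and 2.06 CPM under DMSO. It had 26 to 74 reads per library and ratios of 1.91 and 0.609. ODF3B (ENSG00000177989, chromosome 22, 50529710 to 50532580, minus strand), listed in RefSeq as CIMAP1B, had 1.64, 3.11 and 1.93 CPM under JQ1, against 0.965, 1.3 and 1.38 CPM under DMSO, in VHL-negative cells. In VHL-positive cells ODF3B had 1.72, 2.17 and 2.17 CPM under JQ1, against 4.30, 3.81 and 4.55 CPM under DMSO. The ratios were 1.83 and 0.478, and 15.1% of its exon length lies in exons of TYMP on the same strand, so that reads there cannot be given to either gene. In CAMK2N2 27.4% of the exon length overlaps EEF1AKMT4 on the opposite strand, and the labels do not say whether counting used strand.

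LIMA1 and SHISA2 went the other way. LIMA1 (ENSG00000050405, chromosome 12, 50175788 to 50283546, minus strand) encodes EPLIN, which bundles actin filaments and is known to be lost in some carcinomas. It had 81.6, 66.8 and 67.5 CPM under JQ1, against 107, 120 and 148 CPM under DMSO, in VHL-negative cells. In VHL-positive cells LIMA1 had 66.1, 70.6 and 67.9 CPM under JQ1, against 35.7, 55.0 and 45.2 CPM under DMSO. Its ratios were 0.576 and 1.505, and under JQ1 both lines held nearly the same level. SHISA2 (ENSG00000180730, chromosome 13, 26044597 to 26051031, minus strand), an endoplasmic reticulum protein known to hold back receptors of Wnt and FGF signals, had 192, 150 and 180 CPM under JQ1, against 224, 275 and 321 CPM under DMSO, in VHL-negative cells. In VHL-positive cells SHISA2 had 129, 115 and 127 CPM under JQ1, against 59.1, 113 and 68.5 CPM under DMSO. The lowest JQ1 library lay only just above the highest DMSO library in VHL-positive cells, and the ratios were 0.638 and 1.54.

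**Figure D2:**
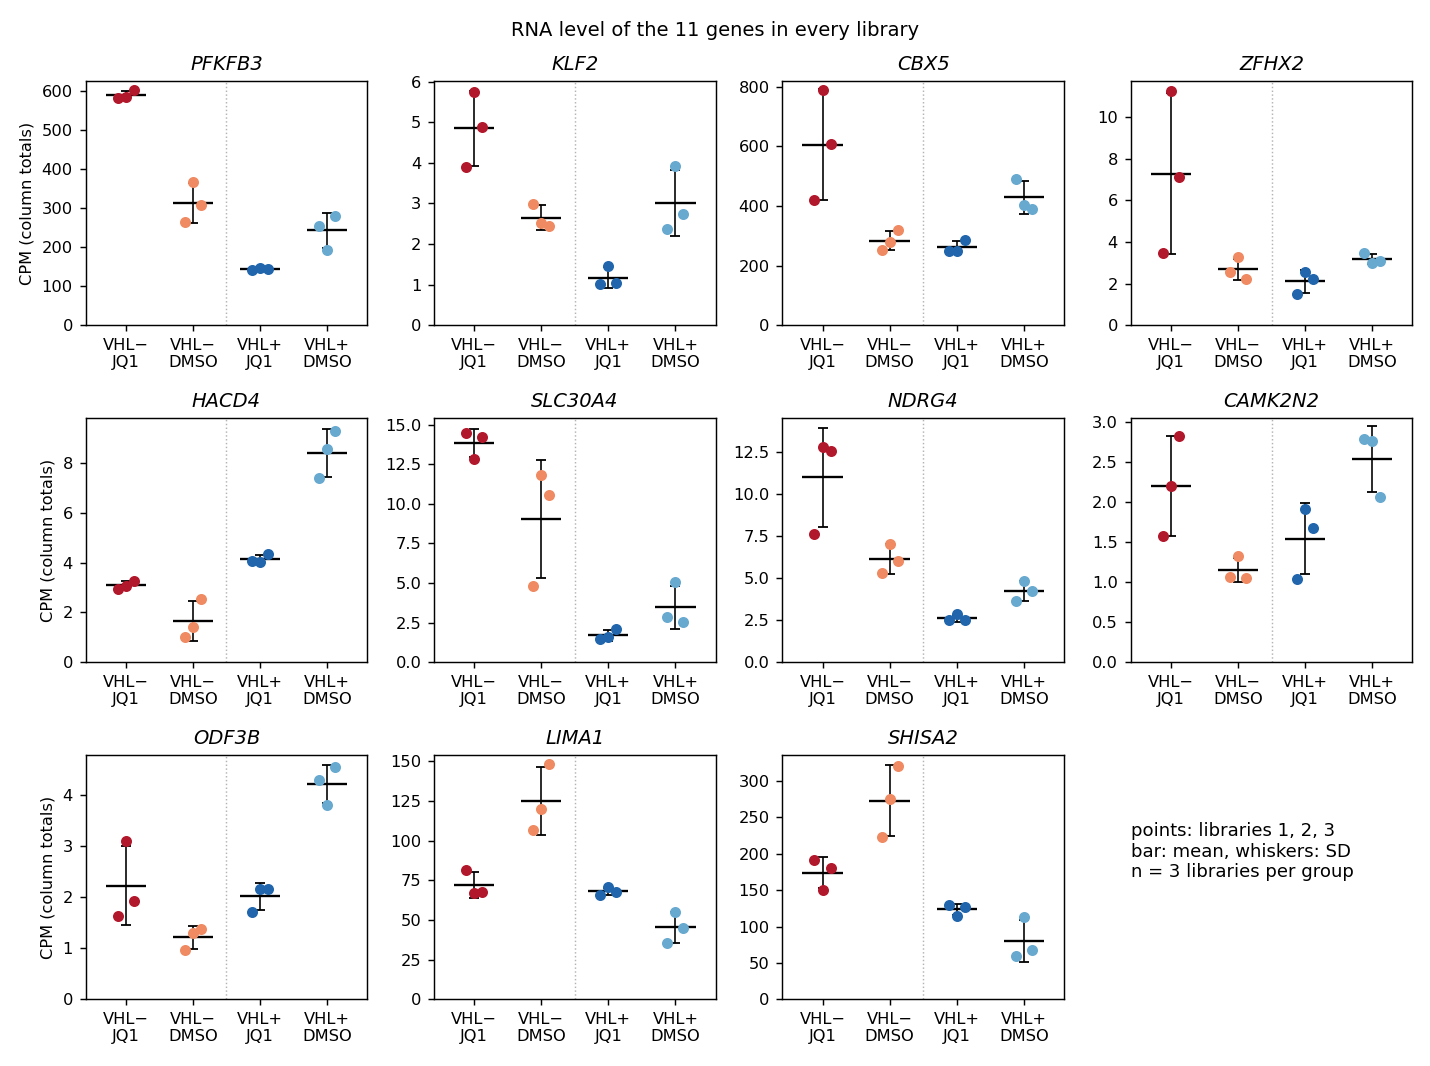
CPM of each of the 11 genes in the 12 libraries, on linear axes that start at 0; points are libraries, bars are means and whiskers are SDs, with VHL− for VHL-negative and VHL+ for VHL-positive cells. In LIMA1 and SHISA2 the JQ1 libraries sit below the DMSO libraries in VHL-negative cells and above them in VHL-positive cells, and in the other 9 genes the order is the reverse.

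The genes differ widely in level. Per kilobase of exon, in JQ1-treated VHL-negative cells, PFKFB3 had 96.5 ± 1.82, SHISA2 60.9 ± 7.50, CBX5 40.3 ± 12.4 and LIMA1 11.4 ± 1.32 CPM (SD, n = 3). The other 7 genes lay between 0.338 (HACD4) and 2.40 (KLF2) CPM per kilobase. The median of the mean CPM was 6.00 over the 11 genes and 33.4 over the 11316, so most of the genes stand on fewer reads than a typical protein-coding gene. Median gene spans were 35338 and 34164 bases.

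The rule did not use the difference between the lines averaged over both treatments. That difference was tested (edgeR's quasi-likelihood test, Benjamini-Hochberg over 20714 genes, TMM scaling). It takes in the JQ1 libraries as well as the DMSO libraries, so it is not a line difference free of the drug. The JQ1 effects that chose the genes set how far the values in the 2 treatments lie apart. Over the 11 genes the median log2 fold change between the lines was -0.23 under DMSO and 1.04 under JQ1. Whether the lines differ without the drug is therefore not answered by the average. Averaged over both treatments, VHL-negative cells held more RNA of 7 genes and less of 2 than VHL-positive cells, and 2 did not pass. The average need not hold in each treatment, as the values given further below show. KLF2 and ZFHX2, higher in the average, were at log2 -0.23 and -0.29 under DMSO. Of all genes tested 48.1% passed, 23.7% higher and 24.4% lower, and the median log2 fold change was 0.66 over the 11 genes and 0.03 over all. Unlike all genes tested, the 11 had to have at least 1 CPM in all groups and non-overlapping libraries. The shares are therefore not on equal terms. SLC30A4 differed most, with 4.23 times as much RNA (log2 2.08, SE 0.21, adjusted p = 4.9e-07). NDRG4 (log2 1.18, SE 0.14, adjusted p = 4.05e-06), PFKFB3 (log2 1.09, SE 0.095, adjusted p = 1.05e-07) and SHISA2 (log2 1.01, SE 0.15, adjusted p = 4.36e-05) were each about 2-fold higher. KLF2 (log2 0.82, SE 0.19), LIMA1 (log2 0.66, SE 0.12) and ZFHX2 (log2 0.65, SE 0.22) were higher by less, at adjusted p-values of 0.00223, 0.000325 and 0.0247. HACD4 was lower by 1.51 on the log2 scale (log2 -1.51, SE 0.16, adjusted p = 1.29e-06), and ODF3B by less (log2 -0.96, SE 0.17, adjusted p = 0.000186). CBX5 (log2 0.19, SE 0.12, adjusted p = 0.181) and CAMK2N2 (log2 -0.42, SE 0.2, adjusted p = 0.0953) did not pass, so for these genes the lines did not differ detectably once both treatments were averaged. The other 8 calls held in all 12 fits that left out a library. Without VHL-negative JQ1 library 1 CBX5 passed (log2 0.27, adjusted p = 0.0298), and without VHL-positive JQ1 library 1 CAMK2N2 did (log2 -0.54, adjusted p = 0.0391). The ZFHX2 call was lost with limma-voom (log2 0.57, adjusted p = 0.0636), at a threshold of 0.01, and in 4 of the 12 fits without a library. Those were the fits without VHL-negative JQ1 library 2 (log2 0.45, adjusted p = 0.0698), VHL-negative DMSO library 2 (log2 0.60, adjusted p = 0.0648), VHL-positive JQ1 library 1 (log2 0.54, adjusted p = 0.071) and VHL-positive DMSO library 3 (log2 0.62, adjusted p = 0.0521).

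**Figure D3:**
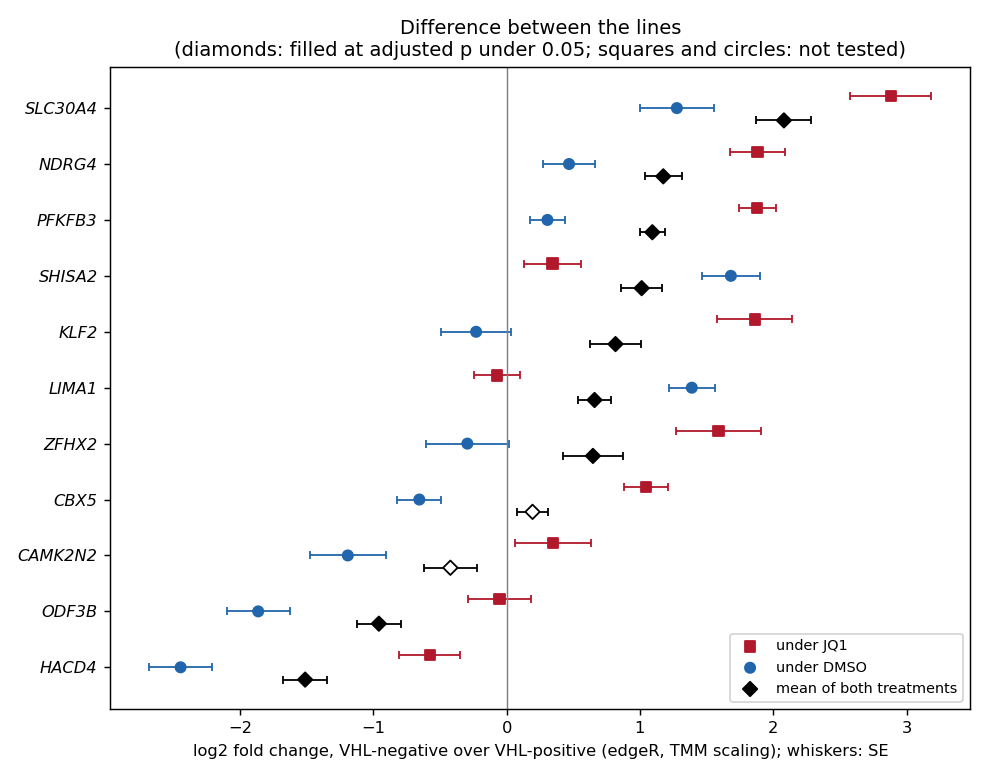
Log2 fold change of VHL-negative over VHL-positive cells for each gene under JQ1 (squares), under DMSO (circles) and for the mean of both treatments (diamonds, filled where the adjusted p is under 0.05), with SE as whiskers, from edgeR. SLC30A4 has the highest mean value (2.08) and HACD4 the lowest (-1.51).

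The difference between the lines within a treatment shares its libraries with the choice of the genes and is given without a test. Under JQ1, VHL-negative over VHL-positive cells was log2 1.86 ± 0.28 (SE) for KLF2, 1.88 ± 0.14 for PFKFB3, 1.88 ± 0.20 for NDRG4, 2.88 ± 0.30 for SLC30A4, 1.59 ± 0.32 for ZFHX2 and 1.04 ± 0.17 for CBX5. Under DMSO the same 6 values were -0.23 ± 0.26, 0.31 ± 0.13, 0.47 ± 0.19, 1.28 ± 0.28, -0.29 ± 0.31 and -0.65 ± 0.17. All 6 genes stood higher relative to VHL-positive cells under JQ1 than under DMSO, as their choice implies. The rest took the other shape, with the lines nearer to each other under JQ1. HACD4 was at log2 -0.58 ± 0.23 under JQ1 and -2.45 ± 0.23 under DMSO, and ODF3B at -0.05 ± 0.24 and -1.86 ± 0.23. LIMA1 was at -0.07 ± 0.17 under JQ1 and 1.39 ± 0.17 under DMSO, SHISA2 at 0.34 ± 0.21 and 1.68 ± 0.22, and CAMK2N2 at 0.35 ± 0.29 and -1.19 ± 0.28. The sign of the JQ1 value turned with total counts alone for ODF3B (log2 0.12) and for LIMA1 (log2 0.08).

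The promoters were read from RefSeq (GRCh38.p14), as windows of 250 bases before to 50 bases after each annotated start; 19 windows were found for the 11 genes. They were searched on both strands for ACGTG, a form of the core of the hypoxia response element, and for CACGTG, which contains it. CACGTG is the E-box that MYC and its partner MAX bind. Also searched were the AP-1 motif TGANTCA and the TEAD motif GGAATG. Other forms of the hypoxia response core were not searched, so a window without ACGTG may still hold such a core. PFKFB3 has 2 annotated starts; CBX5 and CAMK2N2 hold CACGTG as well, and the first of the 2 LIMA1 windows, a gene which moved the other way, holds ACGTG without CACGTG. They are shown 5′ to 3′ on the gene's strand, in lower case, with these motifs in capitals. The PFKFB3 windows are chr10:6144671-6144970 and chr10:6202682-6202981 on the plus strand. The others, on the minus strand, are chr12:54280073-54280372 (CBX5, first of 3 starts), chr3:184261504-184261803 (CAMK2N2) and chr12:50283471-50283770 (LIMA1, first start).
PFKFB3, first start: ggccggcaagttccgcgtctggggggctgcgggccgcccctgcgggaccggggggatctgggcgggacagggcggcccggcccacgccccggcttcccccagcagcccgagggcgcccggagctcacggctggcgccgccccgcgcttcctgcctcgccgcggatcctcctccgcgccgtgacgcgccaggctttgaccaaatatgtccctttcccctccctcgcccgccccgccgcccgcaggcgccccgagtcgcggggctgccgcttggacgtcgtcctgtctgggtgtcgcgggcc
PFKFB3, second start: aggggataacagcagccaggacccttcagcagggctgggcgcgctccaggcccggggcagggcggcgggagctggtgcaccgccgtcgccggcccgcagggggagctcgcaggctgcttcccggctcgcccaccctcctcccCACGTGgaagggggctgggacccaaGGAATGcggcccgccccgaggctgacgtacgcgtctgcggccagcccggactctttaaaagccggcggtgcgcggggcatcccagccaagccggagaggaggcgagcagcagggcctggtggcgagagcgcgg
CBX5: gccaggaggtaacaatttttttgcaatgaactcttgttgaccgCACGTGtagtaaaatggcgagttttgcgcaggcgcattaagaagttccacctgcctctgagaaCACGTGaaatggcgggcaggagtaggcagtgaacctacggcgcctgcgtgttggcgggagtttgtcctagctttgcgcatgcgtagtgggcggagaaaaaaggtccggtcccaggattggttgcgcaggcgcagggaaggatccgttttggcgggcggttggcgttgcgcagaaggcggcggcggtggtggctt
CAMK2N2: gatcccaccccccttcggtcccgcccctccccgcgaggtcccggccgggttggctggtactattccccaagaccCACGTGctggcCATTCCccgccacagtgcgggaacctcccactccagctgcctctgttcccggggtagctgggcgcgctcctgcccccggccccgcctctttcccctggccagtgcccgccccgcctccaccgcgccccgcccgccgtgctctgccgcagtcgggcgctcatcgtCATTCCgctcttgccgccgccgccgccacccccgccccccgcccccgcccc
LIMA1, first start: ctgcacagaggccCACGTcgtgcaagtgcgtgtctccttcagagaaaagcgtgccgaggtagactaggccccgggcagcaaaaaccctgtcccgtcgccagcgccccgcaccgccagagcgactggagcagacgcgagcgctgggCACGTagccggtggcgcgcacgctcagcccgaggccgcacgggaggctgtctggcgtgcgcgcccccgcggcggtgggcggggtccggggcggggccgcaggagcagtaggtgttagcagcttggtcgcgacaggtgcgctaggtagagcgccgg

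The first PFKFB3 window held none of the 4 motifs and the second held CACGTG, whose first base is 108 bases before the start, and GGAATG 83 bases before it. The first of the 3 CBX5 windows, which is the one shown, held CACGTG at 207 and 144 bases before its start. The other CBX5 windows held none of the 4 motifs. CAMK2N2 held CACGTG at 176, and the first LIMA1 window held ACGTG at 237 and 105. Among the 11 genes 5 held ACGTG in at least 1 window (ODF3B, CBX5, PFKFB3, CAMK2N2 and LIMA1), 3 held CACGTG, 3 held GGAATG (PFKFB3, CAMK2N2 and LIMA1, in its second window) and 0 held TGANTCA. By window, 6 of 19 held ACGTG (31.6%), against 21.4% of 35116 windows in the whole table; 15.8% held CACGTG, against 7.26%; 15.8% held GGAATG, against 14%; and 0% held TGANTCA, against 7.71%. The holders of ACGTG included genes of both directions. Median GC content was 66.7% in the 19 windows and 58.7% in all.

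The nearest relatives of these genes varied in their JQ1 responses. Of 46 listed paralogs 35 were tested, and 0 were called in opposite directions in the lines; of all 20714 genes 45 were (0.217%), so this count does not set the relatives apart. In VHL-negative cells 3 were called higher and 8 lower under JQ1, and in VHL-positive cells 6 higher and 8 lower; of all 20714 genes 32.1% and 31.8% were called in these lines, and 1.21% for the difference. PFKFB4, the other isoform tied to hypoxia, was higher under JQ1 in VHL-negative cells (90.3 ± 4 against 70.1 ± 8.07 CPM, log2 0.37, adjusted p = 0.024) and did not pass in VHL-positive cells (6.28 ± 0.16 against 7.69 ± 0.76 CPM, log2 -0.18, adjusted p = 0.323), but the difference between the lines did not pass (log2 0.55, adjusted p = 0.105). For PFKFB2 the values were 10.1 ± 0.66 against 13.4 ± 2.94 CPM in VHL-negative cells (log2 -0.38, adjusted p = 0.0553) and 20.5 ± 2.03 against 33.8 ± 6.41 CPM in VHL-positive cells (log2 -0.61, adjusted p = 0.00333), and the difference did not pass either (log2 0.23, adjusted p = 0.504). CBX1, another heterochromatin protein 1, was called higher under JQ1 in VHL-negative cells (log2 0.38, adjusted p = 0.0422) and not in VHL-positive cells (log2 0.15, adjusted p = 0.432), but the difference between them did not pass (log2 0.23, adjusted p = 0.489). ZFHX3, a relative of ZFHX2, had values that ran the same way as those of ZFHX2, with 120 ± 56.7 CPM under JQ1 against 86.4 ± 24.3 under DMSO in VHL-negative cells (log2 0.48, adjusted p = 0.168) and 54.5 ± 10.5 against 108 ± 26.4 CPM in VHL-positive cells (log2 -0.86, adjusted p = 0.0186). The test of the difference gave log2 1.35 for ZFHX3 (adjusted p = 0.0757), which did not pass. CAMK2N1 took the values of a mirror image of CAMK2N2, with 7.06 ± 0.83 CPM under JQ1 against 10.9 ± 2.02 under DMSO in VHL-negative cells and 5.87 ± 0.36 against 4.44 ± 0.32 in VHL-positive cells, and the test of its difference gave log2 -1.13 (adjusted p = 0.0714), which did not pass. NDRG1, a gene induced by low oxygen, was the only one of the 35 whose JQ1 effect was called different between the lines (log2 -1.45, adjusted p = 0.0202), with 586 ± 52.1 CPM under JQ1 against 542 ± 25.6 under DMSO in VHL-negative cells and 232 ± 9.31 against 84.8 ± 29.2 in VHL-positive cells.

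**Figure D4:**
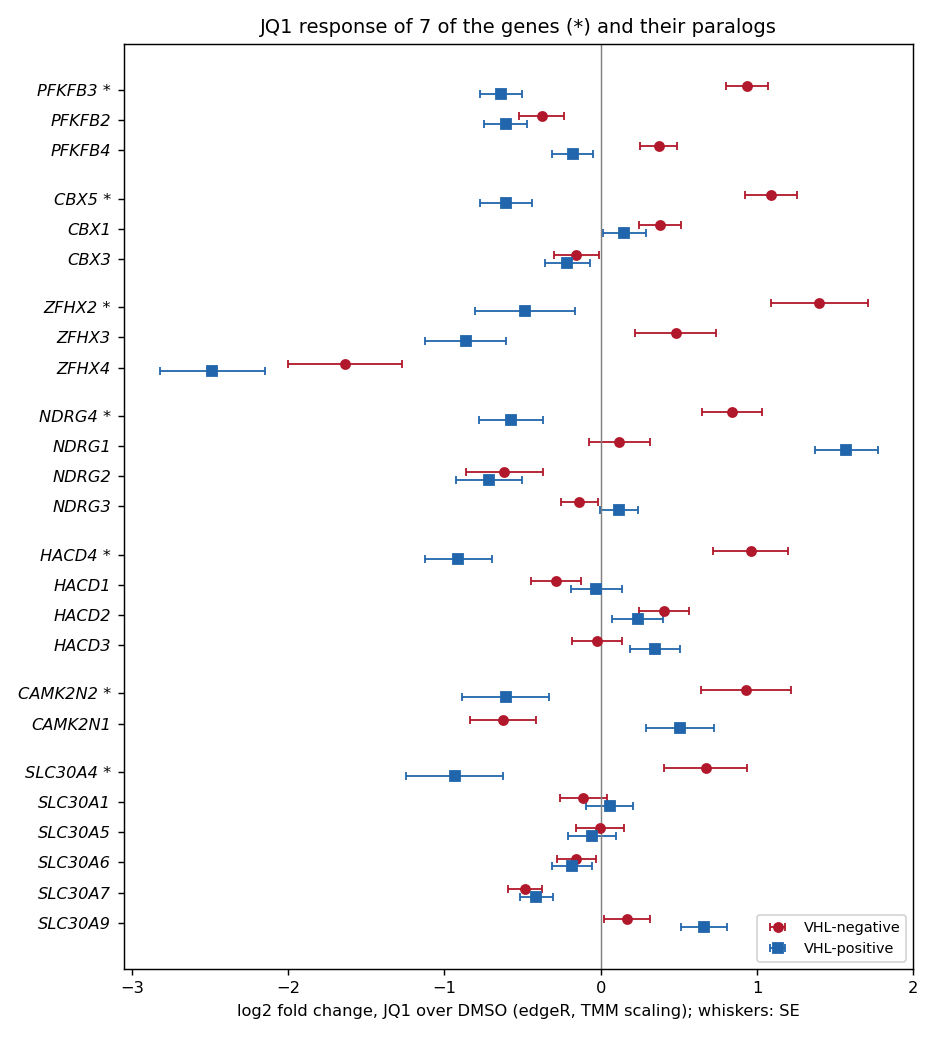
Log2 fold change of JQ1 over DMSO, with SE as whiskers, in VHL-negative (red circles) and VHL-positive cells (blue squares) for 7 of the 11 genes (asterisks) and their tested paralogs. The 7 genes have the circle to the right of 0 and the square to the left, as have PFKFB4 and ZFHX3; CAMK2N1 has them the other way round beyond its SEs, and NDRG1 is high in VHL-positive cells only (log2 1.57).

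Of lists of related genes, 2 hold a member. The other 30 tested HIF targets besides PFKFB3 were higher in VHL-negative cells in 28 cases and lower in 1 (median log2 1.82). Of all 20714 genes 23.7% were higher and 24.4% lower in that comparison. Under JQ1 32.1% of all genes were called in either direction in VHL-negative cells and 31.8% in VHL-positive cells. Among the 30, JQ1 called 10 higher and 4 lower in VHL-negative cells, and also 10 and 4 in VHL-positive cells. The difference between the JQ1 effects was called for 4, of which HILPDA (log2 2.01, adjusted p = 6.6e-05) and VEGFA (log2 1.51, adjusted p = 0.0163) moved more toward higher values in VHL-negative cells. Of the 30, CA9 was the 1 called in opposite directions (log2 -1.57 in VHL-negative and 2.16 in VHL-positive cells), but its VHL-positive libraries held under 1 CPM. The other 23 tested AP-1 and immediate early genes besides KLF2 were called higher 9 times and lower 0 times under JQ1 in VHL-negative cells, and 7 and 1 times in VHL-positive cells. No difference between the JQ1 effects was called for any of the 23; the smallest-p genes of that list were KLF6 (log2 -0.74, adjusted p = 0.1), FOSL1 (log2 1.36, adjusted p = 0.152) and DUSP1 (log2 -0.55, adjusted p = 0.235). Over all lists, 15 of 364 tested genes outside the 11 had a JQ1 effect called different between the lines, against 1.21% of all 20714 genes. In opposite directions 3 of the 364 were called, against 0.217% of all genes. These were CA9, the integrin ITGB8 (log2 -0.46, adjusted p = 0.0332 in VHL-negative and log2 0.73, adjusted p = 0.00209 in VHL-positive cells) and LPIN1, a phosphatidate phosphatase (log2 -0.36, adjusted p = 0.0349 and log2 0.68, adjusted p = 0.000544). ITGB8 and LPIN1 were named after their values were seen, and both went the way of LIMA1 and SHISA2. Both had ratios short of the limit in VHL-negative cells. There the ITGB8 libraries also overlapped, with up to 233 CPM under JQ1 and as little as 217 CPM under DMSO. LPIN1 fell short in VHL-positive cells too, with means of 122 CPM under JQ1 and 82.3 CPM under DMSO.

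Which genes meet the limits depended on the libraries. Leaving out 1 library at a time gave 9 to 72 genes, with 72 (10 of the 11 among them) without VHL-negative JQ1 library 1 and 17 without VHL-positive DMSO library 2. KLF2, HACD4, CBX5 and PFKFB3 met the limits in all 12 such fits and with TMM scaling; SHISA2 met them in 8 of 12. TMM-scaled library sizes gave 10 genes, 8 of them among the 11, and CAMK2N2, NDRG4 and ZFHX2 then missed the limits. Just outside lay UGT1A7 (ratios 1.56 and 0.670) and RORA (1.86 and 0.690), and on the other side CAMK2N1 (0.649 and 1.32) and ABHD4 (0.771 and 1.66). Just inside lay ZFHX2 (2.72 and 0.662) and SLC30A4 (1.53 and 0.493), and LIMA1 (0.576 and 1.505) and SHISA2 (0.638 and 1.54). When the genes were chosen with 2 libraries per group, the choice did not use the libraries left out. Directions there were read between libraries of the same number, although numbers were not taken to pair the libraries. Without replicate 1, 13 of 48 chosen genes (27.1%) had opposite directions in the left-out libraries, against 26.6% of all genes. Without replicate 2 it was 14 of 18 (77.8%, against 32.6%), and without replicate 3 it was 15 of 17 (88.2%, against 30.9%). Ratios past the limits in the left-out libraries were reached by 4 of the 48, 5 of the 18 and 4 of the 17 genes. Those are 8.33%, 27.8% and 23.5%, against 0.698%, 1.16% and 0.594% of all genes. The 48, 18 and 17 genes held 5, 10 and 10 of the 11, whose choice had also used the left-out libraries. For those members, opposite directions in the left-out libraries follow from the full choice. The shares are therefore no separate check of the 11. Without replicate 1 CAMK2N2, CBX5, LIMA1, SHISA2, SLC30A4 and ZFHX2 missed the limits.

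**Figure D5:**
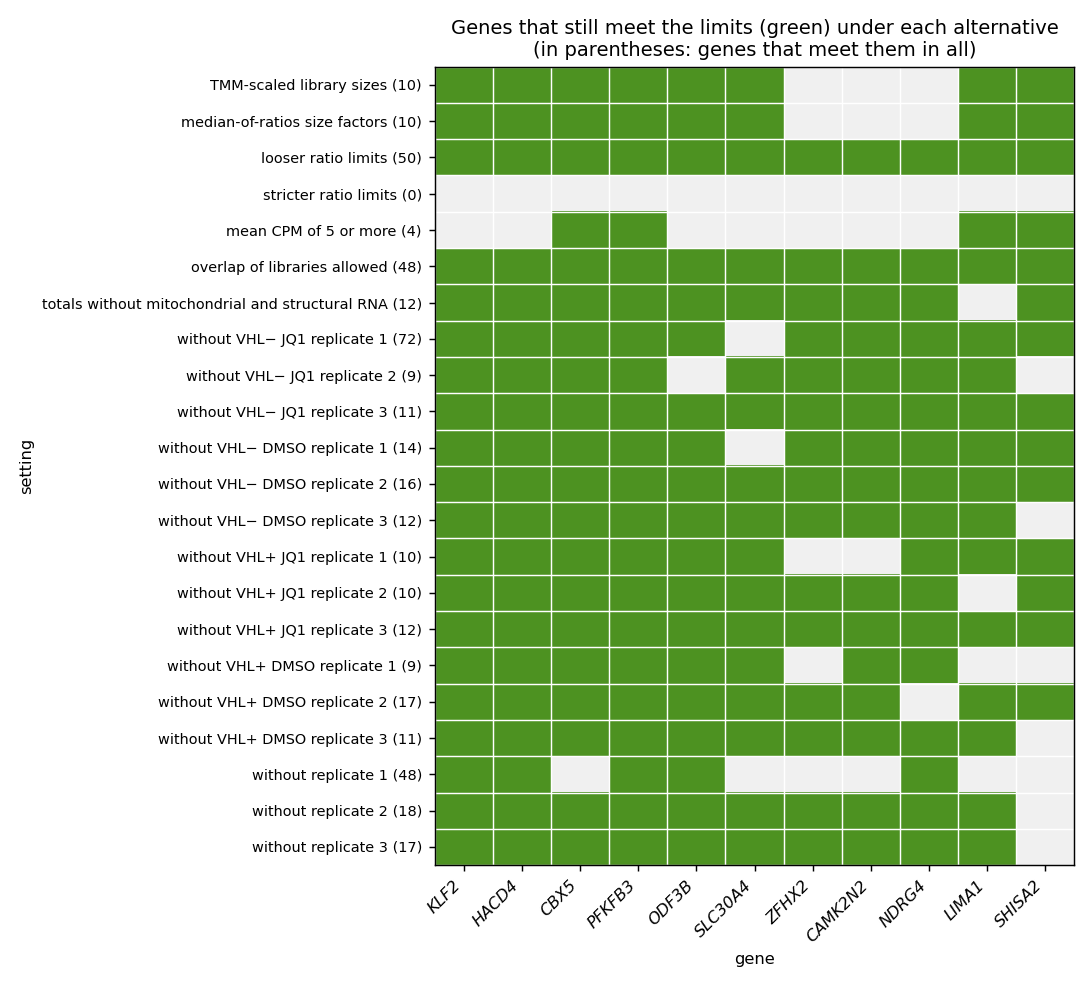
Genes that still meet the limits (green) under each alternative setting, with the number of genes that meet them in all in parentheses. KLF2, HACD4, CBX5 and PFKFB3 are green in every row that leaves out a single library; every gene is lost with ratio limits of 2 and 0.5.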

How the data were processed

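RNA of 12 libraries in 4 groups of 3 was analysed. The authors deposited a table of raw counts per Ensembl gene. The submitters' processing notes list the aligner STAR (2.7.8), featureCounts from Subread (2.0.3), DESeq2 (1.30.1) and the build GRCh38; annotation release and strand setting are not stated. Per the file headers, the authors made log2 fold changes of JQ1 over DMSO with DESeq2, 1 table per line. Per the file headers, the authors' test score is such a fold change divided by its SE. The p-values deposited by the authors came from the same tables, as did, as another (other) kind of value, mean normalized counts; scores, p-values and means were not used.

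The software was edgeR 4.0.16 under R 4.3.3, Python 3.11.15 and, for alternatives, limma 3.58.1 and DESeq2 1.42.0. Members were chosen by ratios of mean CPM on column totals. After TMM scaling and edgeR's low-count filter, 20714 genes entered 1 quasi-likelihood fit of all libraries with the 4 group means as terms; an adjusted p under 0.05 passed. The mean of a line over both treatments was the test for the members. Tested on simulated data, this comparison recovered 94.0% of 2-fold and 59.7% of 1.5-fold changes (67 genes each, in 19965). The changed genes were drawn only from those above a floor of mean expression, which CAMK2N2 does not reach. These shares need not hold for the 11, most of which stand on fewer reads than a typical gene. All 11 members were named, with per-library values for each. Members and lists were chosen with earlier results of these data known. Of the gene IDs, 60462 had a symbol and 58395 were in GENCODE release 29. Correlations of deviations were -0.26 to 0.335 over 18 same-numbered pairs of libraries and -0.381 to 0.203 over 36 others; not every same-numbered pair was above 0.1, so numbers were not taken to pair the libraries. Replicate libraries differed beyond counting noise. Total counts alone shifted the median of all genes by 0.109 (log2) in the line comparison against TMM, and by -0.114 for JQ1 in VHL-positive cells. Alternatives were other scalings, filters, tools and thresholds, a replicate block, protein-coding genes only and leaving out each library in turn.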

Additional observations from a re-analysis of the deposited data

Results flagged for a closer look

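In 7 of the genes outside the 11 that are named above, the JQ1 effect differed between the lines by a test of the difference itself (edgeR's quasi-likelihood test, Benjamini-Hochberg over 20714 genes). It was higher in VHL-negative cells for HILPDA, a lipid droplet protein (log2 2.012, adjusted p = 6.6e-05), and VEGFA, an angiogenic factor (log2 1.505, adjusted p = 0.0163). It was lower in VHL-negative cells for CA9, a carbonic anhydrase (log2 -3.729, adjusted p = 0.0179), NDRG1 (log2 -1.452, adjusted p = 0.0202), VHL (log2 -1.286, adjusted p = 0.00161), ITGB8 (log2 -1.187, adjusted p = 0.0163) and LPIN1 (log2 -1.038, adjusted p = 0.00911). CA9 had under 1 CPM in each VHL-positive library.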

How the results depend on the processing

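The number of genes that met the limits was 11, but 50 with looser ratio limits, 0 with stricter ones, 4 with a mean CPM of 5 or more, 48 with overlapping libraries allowed, and 9 to 72 without a single library; without replicates 1, 2 or 3 of all groups it was 48, 18 and 17. Totals without mitochondrial and structural RNA, chosen after seeing the data, gave 12. LIMA1 then missed the limits and RBM14-RBM4 and UGT1A7 met them, which left 11 genes in the direction of KLF2 and 1 in that of SHISA2. Mitochondrial RNA made up 25.3% of the counts of VHL-negative DMSO library 1, against 13.1% and 9.90% in libraries 2 and 3. Its part in the choice was not tested. Without a threshold change the line comparisons kept their counts within 1.5 times; at an adjusted p under 0.01, 4137 genes passed under DMSO, 5483 under JQ1, 4039 for JQ1 in VHL-negative cells and 3989 in VHL-positive cells. The difference between the JQ1 effects, called for 250 genes, was called for 1336 with no filter, 1188 with DESeq2, 47 at 0.01, and 43 to 3510 without a single library. Some line differences within a treatment, which are given without a test, changed sign. ODF3B under JQ1 turned to log2 0.116 with total counts alone, 0.0029 with a filter of 1 CPM and 0.0710 with protein-coding genes only, and ran from -0.294 to 0.0648 without a single library. LIMA1 under JQ1 turned to 0.0804 with total counts alone and 0.0428 with protein-coding genes only, and ran from -0.251 to 0.0210. KLF2 under DMSO ran from -0.448 to 0.0577. The cause was not tested. With the replicate number as a block, which is not taken to pair the libraries, 9889 genes passed instead of 9958 for the mean of both treatments, 6191 instead of 6357 under DMSO, 8406 instead of 8479 under JQ1, and 272 instead of 250 for the difference. Members called were 9 of 11 in both fits for the mean. KLF2, CAMK2N2 and ODF3B rested on few reads (19 to 148 per library), which limits their precision. The same limit holds for ZFHX2 (41 to 174 reads), HACD4 (29 to 302), NDRG4 (46 to 307) and SLC30A4 (39 to 441).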
